A study of Homo sapiens with 14 samples.

Results

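The genes described here encode chaperones and proteases that keep proteins folded or remove damaged ones in 2 compartments of the cell, the mitochondrion and the cytosol. They are 44 of the 27142 genes in the count table, 19 on a mitochondrial list that runs from HSPD1 to LACTB and 25 on a cytosolic list that begins with the heat shock factor HSF1. The members were matched by gene symbol, the lists themselves having been drawn up with earlier results of these data known, and all 44 were found in the table and passed the filter on low counts. Polyadenylated RNA was sequenced from IMR90 cells, an established human fetal lung fibroblast line labelled wild type. Cells were given 20 uM 2',3'-dideoxycytidine (ddC), a cytidine analog that stops the copying of mitochondrial DNA, for 24, 48, 72 or 96 h, with 3 libraries at each time. The 2 untreated libraries served all 4 times. Their labels name a water vehicle and day 4, whereas the series' design text gives 0 h, so how long these cells were kept is uncertain. All libraries came from 1 cell line.

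Mitochondria import most of their proteins unfolded. The matrix HSP70 pulls them in, the HSP60 and HSP10 chaperonin folds them, and proteases such as LONP1 and CLPP degrade those that fail. When unfolded proteins accumulate in mitochondria, nuclear genes for these chaperones and proteases can be induced, a programme called the mitochondrial unfolded protein response. In the cytosol, HSP70, HSP90, their co-chaperones, the small heat shock proteins and the TRiC chaperonin do the corresponding work. Many of those genes are driven by HSF1, which binds heat shock elements, repeats of GAA in alternating orientation, near their start sites.

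Total counts per library were 9398703 to 12147402. Reads on genes lying opposite an abundant gene, counted over 269 such pairs, split the libraries into a lower and a higher set. Per 1000 reads on those abundant genes, there were 0.782 to 0.931 such reads in the untreated, 24 h and first and second 48 h libraries. The third 48 h library and all 72 h and 96 h libraries had 1.06 to 1.16. The measure is continuous, and the sets were divided at a fixed value lying between these ranges. The 72 h and 96 h libraries therefore differ from the untreated ones in this measure as well as in treatment, and for these comparisons treatment and set cannot be told apart except through the third 48 h library. Fibroblast markers summed to 38806 to 42153 CPM (counts scaled to a library total of 1e+06) at 96 h, against 33114 to 33853 CPM in untreated cells. The epithelial marker CDH1, the endothelial PECAM1 and CDH5 and the T cell marker CD3E had 0 counts in every library. The rest of the endothelial list summed to 34.2 to 45.7 CPM over all libraries, nearly all from TEK, and the rest of the blood cell list to 43.1 to 60.8 CPM, nearly all from CD68. At 96 h these sums were 37.9 to 42.4 and 47.95 to 49.98 CPM, against 39.0 to 45.1 and 51.2 to 53.7 CPM in untreated cells. The 4 epithelial markers summed to 65.5 to 72.9 CPM at 96 h, against 50.8 to 51.9 CPM in untreated cells, nearly all from KRT8 and KRT18, which rose by 0.55 and 0.44 on the log2 scale, and their part in the results was not tested. Nuclear noncoding RNA, summed over MALAT1, NEAT1, MEG3 and KCNQ1OT1, varied widely within groups, with 235 to 538 CPM at 96 h, against 284 to 721 CPM in untreated cells, and 156 to 1013 CPM over all libraries. Its median fitted log2 change at 96 h was -0.46, with 0 of the 4 called, and its part in the results was looked at only by a fit with it as a covariate. The table held 0 genes encoded on mitochondrial DNA, so RNA from the mitochondrial genome was not analysed here.

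The 7 members that held a heat shock element within 250 bases before to 50 bases after a RefSeq start are shown first because 5 of them are among the genes that fell at 96 h. The motif searched was GAANNTTCNNGAA on either strand, whose reverse reads TTCNNGAANNTTC. It occurred in 172 of 35116 promoter windows in RefSeq on GRCh38.p14 (0.49%). It occurred in 1 of 21 windows of the mitochondrial list and in 6 of 34 windows of the cytosolic list (17.6%). RefSeq windows were matched for 38 of the 44 members, and not for FKBP4, HSF1, GRPEL1, CLPP, YME1L1 and CRYAB. Capitals mark the matched bases, and each sequence is read 5′ to 3′ on the strand of its gene. Overlapping matches are run together. A match is a description of the letters and not evidence that a factor is bound there.
HSPD1: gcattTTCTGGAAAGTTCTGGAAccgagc
HSPA8: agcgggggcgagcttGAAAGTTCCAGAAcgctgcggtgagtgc
HSPA8, nearer the start: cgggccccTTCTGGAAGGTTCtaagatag
HSP90AA1: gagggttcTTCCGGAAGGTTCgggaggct
HSP90AB1: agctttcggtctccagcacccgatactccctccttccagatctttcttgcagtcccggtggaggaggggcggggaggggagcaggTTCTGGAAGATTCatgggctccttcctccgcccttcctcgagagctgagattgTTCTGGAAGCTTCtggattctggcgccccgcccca
DNAJA1: gccgggcgGAACTTTCCAGAAcgctcggt
CHORDC1: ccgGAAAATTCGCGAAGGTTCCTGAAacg
DNAJB6: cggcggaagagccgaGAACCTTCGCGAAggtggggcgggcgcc

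The HSPD1 site lies at chr2:197500062-197500090 on the minus strand. HSPD1 and HSPE1, the subunits of the mitochondrial chaperonin, are neighbours read in opposite directions, and in the annotation the site also falls in a noncoding part of an HSPE1 exon. The HSPA8 sites lie at chr11:123062339-123062381, outside annotated exons, and at chr11:123062171-123062199, in an HSPA8 exon. The HSP90AA1 site lies at chr14:102087112-102087140 on the minus strand in a noncoding exon part, and the HSP90AB1 stretch at chr6:44247693-44247865 on the plus strand, outside annotated exons and with 2 separate matches. The DNAJA1 site lies at chr9:33025268-33025296, in a noncoding part of a DNAJA1 exon. The CHORDC1 site lies at chr11:90223084-90223112 in a noncoding exon part and holds 3 overlapping matches, and the DNAJB6 site lies at chr7:157336858-157336900 outside exons. These positions are on GRCh38.p14, with exons from GENCODE. Of the 7 members that fell at 96 h, 5 held the motif, and it was found in 2 of the other 29 matched members without a call and in 0 of the 2 that rose. The 2 holders without a call were CHORDC1, at -0.24 ± 0.10 at 96 h, and DNAJB6, at 0.17 ± 0.06, on opposite sides of 0. HSPH1 and STIP1, both of which fell, had no match in their windows. Nor did the heat shock genes HSPA1A, HSPA1B, DNAJB1, HSPB1 and BAG3. The search took only the exact spelling given, so elements spelled otherwise were not counted. Whether the motif has a part in the falls was not tested.

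The first question was whether any of these genes had changed within 1 to 3 days of ddC. A member was called when its Benjamini-Hochberg adjusted p over all 13371 tested genes was under 0.05 in edgeR's quasi-likelihood test. At 24 h, 0 of 44 members were called, where 0% of all tested genes were. At 48 h the count was again 0, against 0.00748% of all genes, and at 72 h it was 0 against 0.179%. DESeq2 also called 0 members at these times. At an unadjusted p under 0.05 there were 0, 4 and 5 members at 24, 48 and 72 h. Among all 13371 genes there were 457 (3.42%) at 24 h, 804 (6.01%) at 48 h and 968 (7.24%) at 72 h. By list, there were 1 of 19 mitochondrial (5.26%) and 3 of 25 cytosolic members (12%) at 48 h. At 72 h there were 0 of 19 mitochondrial and 5 of 25 cytosolic members (20%). These counts are small, and their difference from all genes was not tested. The members at 48 h were CLPP, HSPA4L, HSPB1 and HSPB8, all higher than in untreated cells. The members at 72 h were HSPA4L, HSPB8, CRYAB and DNAJB6, higher, and HSP90AB1, lower.

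At 96 h, 9 of the 44 members were called, against 5.68% of all tested genes. The HSP90 genes HSP90AA1 and HSP90AB1, the HSP70 genes HSPA8 and HSPH1, the co-chaperones STIP1 and DNAJA1, and the mitochondrial chaperonin HSPD1 fell, 7 in all, where 2.11% of all genes fell. The small heat shock protein HSPB8 and the mitochondrial LACTB rose, where 3.57% of all genes rose. Fitted changes of the called members were between -0.39 and 0.40 on the log2 scale. DESeq2 called the same 9 and HSPA4. At an unadjusted p under 0.05 there were 20 members, 3 mitochondrial (15.8% of the list) and 17 cytosolic (68.0%), where 19.8% of all genes were. The mitochondrial share, resting on 3 members, was thus near that of all genes. In bulk RNA, fewer cells of a type and less RNA per cell cannot be told apart.

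**Figure D1:**
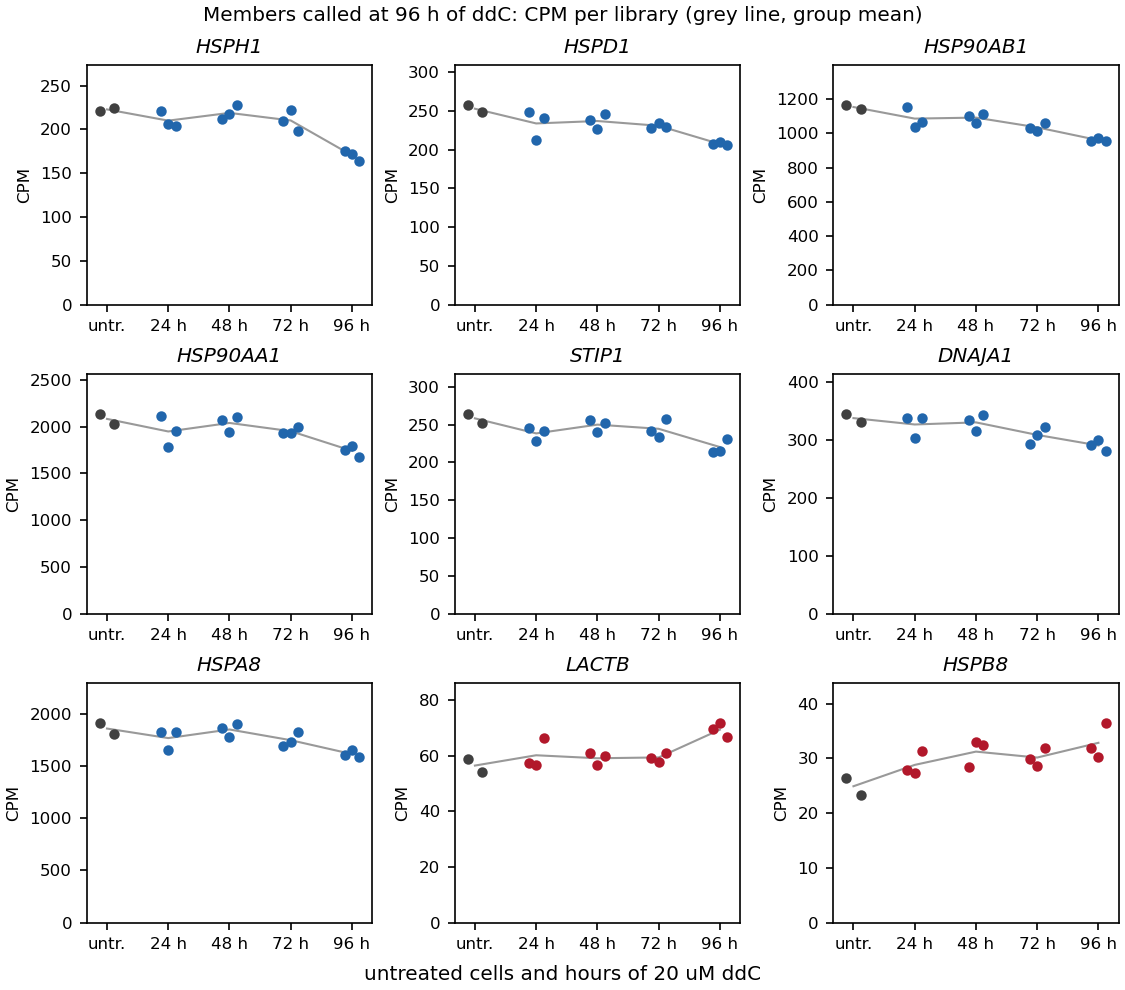
CPM of the 9 members called at 96 h, 1 point per library, for untreated cells (dark grey, left) and for 24, 48, 72 and 96 h of 20 uM ddC (blue, fell; red, rose), with a grey line through the group means. For HSPH1 the 96 h libraries at 164 to 175 CPM lie below every other library, including those at 72 h, while HSPB8 is at 27.3 CPM or more in all treated libraries.

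By list, 1 of 19 mitochondrial members rose and 1 fell, and 1 of 25 cytosolic members rose and 6 fell. The median fitted log2 change at 96 h was -0.059 over the mitochondrial list, -0.118 over the cytosolic list and -0.004 over all tested genes. Values were below 0 for 13 of 19 mitochondrial and 15 of 25 cytosolic members, against 50.8% of all genes. All 96 h libraries lay below both untreated libraries for 5 mitochondrial and 12 cytosolic members, a separation seen in 19.8% of all genes. The opposite separation held for 4 mitochondrial and 7 cytosolic members, against 20.6% of all genes.

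The cytosolic members took 0.673, 0.695 and 0.674% of all counts at 96 h, against 0.808 and 0.778% in untreated cells. The mitochondrial members took 0.165, 0.168 and 0.168% at 96 h, against 0.179 and 0.176% in untreated cells. The groups did not overlap for either share, but these shares are of raw counts, without TMM normalization factors. Those factors were 0.971 to 0.982 at 96 h, against 1.006 and 1.003 in untreated cells. By the mean log2 CPM over the genes of a list, with TMM factors, the groups overlapped for both lists. The mitochondrial list had 5.995, 6.007 and 6.034 at 96 h, against 6.030 and 6.029 in untreated cells. The cytosolic list had 6.568, 6.566 and 6.590, against 6.604 and 6.580. A few abundant genes carry the cytosolic share. Per kilobase of transcript in untreated cells, HSPA8 stood at 759 CPM, HSP90AA1 at 621, HSP90AB1 at 429 and HSPB1 at 324, and the lowest member, HSPB7, at 0.576. On the mitochondrial list PHB2 stood highest at 130 CPM per kilobase, then HSPD1 at 109.6 and HSPA9 at 81.1, and CLPB lowest at 5.31. The spread of the 2 untreated libraries, an SD of 21.4 for HSP90AA1 and 29.8 for HSPA8, is smaller than the gaps between these leading genes.

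**Figure D2:**
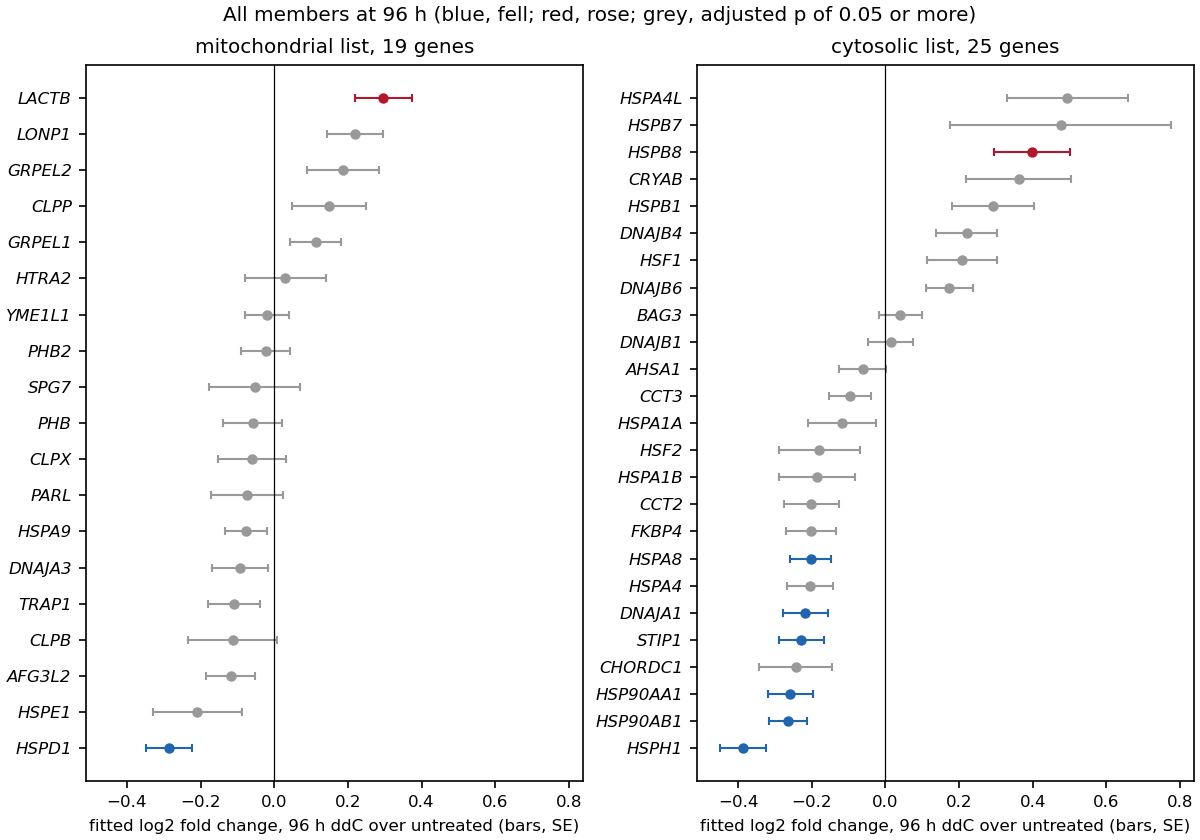
Fitted log2 fold change of each member at 96 h of ddC over untreated cells, with bars of 1 SE (n = 3 and 2 libraries), for the mitochondrial list on the left and the cytosolic list on the right. Called falls are blue, called rises red and members without a call grey. Genes are ordered by fitted change within each list. HSPH1, at -0.39, is the lowest on the cytosolic list, and HSPD1 is the 1 blue point on the mitochondrial list.

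HSPD1 encodes HSP60, the barrel of the mitochondrial chaperonin (chr2:198351308-198364640, hg19). It had 207, 209.7 and 206 CPM at 96 h, against 258 and 248 CPM in untreated cells. The groups did not overlap, and the 96 h libraries were also below every library at 24, 48 and 72 h, the lowest of which had 213 CPM. The fitted log2 change was -0.29 ± 0.06 (SE, adjusted p = 0.00896). Of its 50-base stretches, 24.8% occur in other annotated genes, mainly the pseudogene HSPD1P1. That share was 18.8% for HSP90AB1, 17.5% for HSP90AA1 and 15.4% for HSPA8, and at most 3.53% for the other called members. PARL, without a call, shared 55.5%. The call of HSPD1 was lost without either untreated library, with an adjusted p of up to 0.112, and with a term for the library set.

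HSPE1 encodes HSP10, the lid of the same chaperonin. It had 31.7, 40.9 and 35.2 CPM at 96 h, against 41.5 and 41.6 CPM in untreated cells. All 96 h libraries were lower, but they spread widely, and the log2 change of -0.21 ± 0.12 was not called (adjusted p = 0.357). HSPE1 lies inside the readthrough locus HSPE1-MOB4 on the same strand, which drew 224% of its counts, so its level is uncertain. HSPE1-MOB4 itself was at -0.05 ± 0.08 (adjusted p = 0.793). Summed, the chaperonin pair had 239 to 251 CPM at 96 h, against 289.9 and 299 CPM in untreated cells.

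The matrix HSP70 system and the mitochondrial HSP90 gave 0 calls among 5 members. HSPA9, the matrix HSP70 also called mortalin, had 265, 274 and 265 CPM at 96 h, against 287 and 279 CPM in untreated cells. Its groups stood close together without overlapping, and the log2 change was -0.08 ± 0.06 (adjusted p = 0.483). TRAP1, the mitochondrial HSP90, had 62.4, 59.5 and 67.1 CPM at 96 h, against 66.9 and 69.0 CPM in untreated cells, and overlapped (-0.11 ± 0.07, adjusted p = 0.409). DNAJA3, the J-domain partner of HSPA9, was at -0.09 ± 0.07.

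GRPEL1 and GRPEL2 are nucleotide exchange factors of HSPA9. GRPEL2 had 24.7, 29.4 and 28.3 CPM at 96 h, against 22.2 and 26.1 CPM in untreated cells. The groups overlapped and its log2 change was 0.19 ± 0.10 (adjusted p = 0.2998). GRPEL1 had 50.7 to 53.4 CPM at 96 h, against 47.6 to 47.9 CPM in untreated cells, without a call (0.11 ± 0.07, adjusted p = 0.383).

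Among the 3 members of the matrix proteolysis machinery, 0 were called. LONP1, the main protease of the matrix, had 122, 115 and 129 CPM at 96 h, against 102 and 108 CPM in untreated cells. Every 96 h library was above both untreated ones. Its log2 change of 0.22 ± 0.08 missed the threshold (adjusted p = 0.0981), and it was called when 96 h and untreated libraries were fitted alone (adjusted p = 0.024). CLPP, the proteolytic chamber of the ClpXP protease, had 46.1, 42.7 and 49.5 CPM at 96 h, against 42.7 and 40.5 CPM in untreated cells (0.15 ± 0.10, adjusted p = 0.443). The second 96 h library barely exceeded the higher untreated one. CLPX, its unfoldase, was at -0.06 ± 0.09.

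The 6 inner membrane members likewise gave 0 calls, and all 6 fitted values were between -0.12 and -0.02. YME1L1, the i-AAA protease facing the intermembrane space, had 255, 263 and 254 CPM at 96 h, against 266 and 255 CPM in untreated cells, and the groups overlapped (-0.02 ± 0.06, adjusted p = 0.904). AFG3L2, a subunit of the m-AAA protease facing the matrix, had 57.9, 59.3 and 60.0 CPM at 96 h, against 64.3 and 63.8 CPM in untreated cells. Its 96 h libraries were all lower, without a call (-0.12 ± 0.07, adjusted p = 0.345). Its partner SPG7, the rhomboid protease PARL and the prohibitin scaffolds PHB and PHB2 were between -0.08 and -0.02, and all 4 overlapped.

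Of the 3 intermembrane space members, LACTB rose. LACTB encodes a serine protease-like protein that forms filaments between the mitochondrial membranes (chr15:63413999-63434264, hg19). It had 69.6, 71.7 and 66.8 CPM at 96 h, against 58.9 and 54.1 CPM in untreated cells. The 96 h libraries stood above every other library, though barely above the third at 24 h, which had 66.4 CPM. The log2 change was 0.30 ± 0.08 (adjusted p = 0.0249). The call was lost without either untreated library or without the first or the second 96 h library, with adjusted p up to 0.303, and with a term for the library set (adjusted p = 0.389). HTRA2, a serine protease, was at 0.03 ± 0.11, and CLPB, a disaggregase, at -0.11 ± 0.12. HTRA2 overlaps AUP1 on the other strand, a gene with 492% of its counts.

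**Figure D3:**
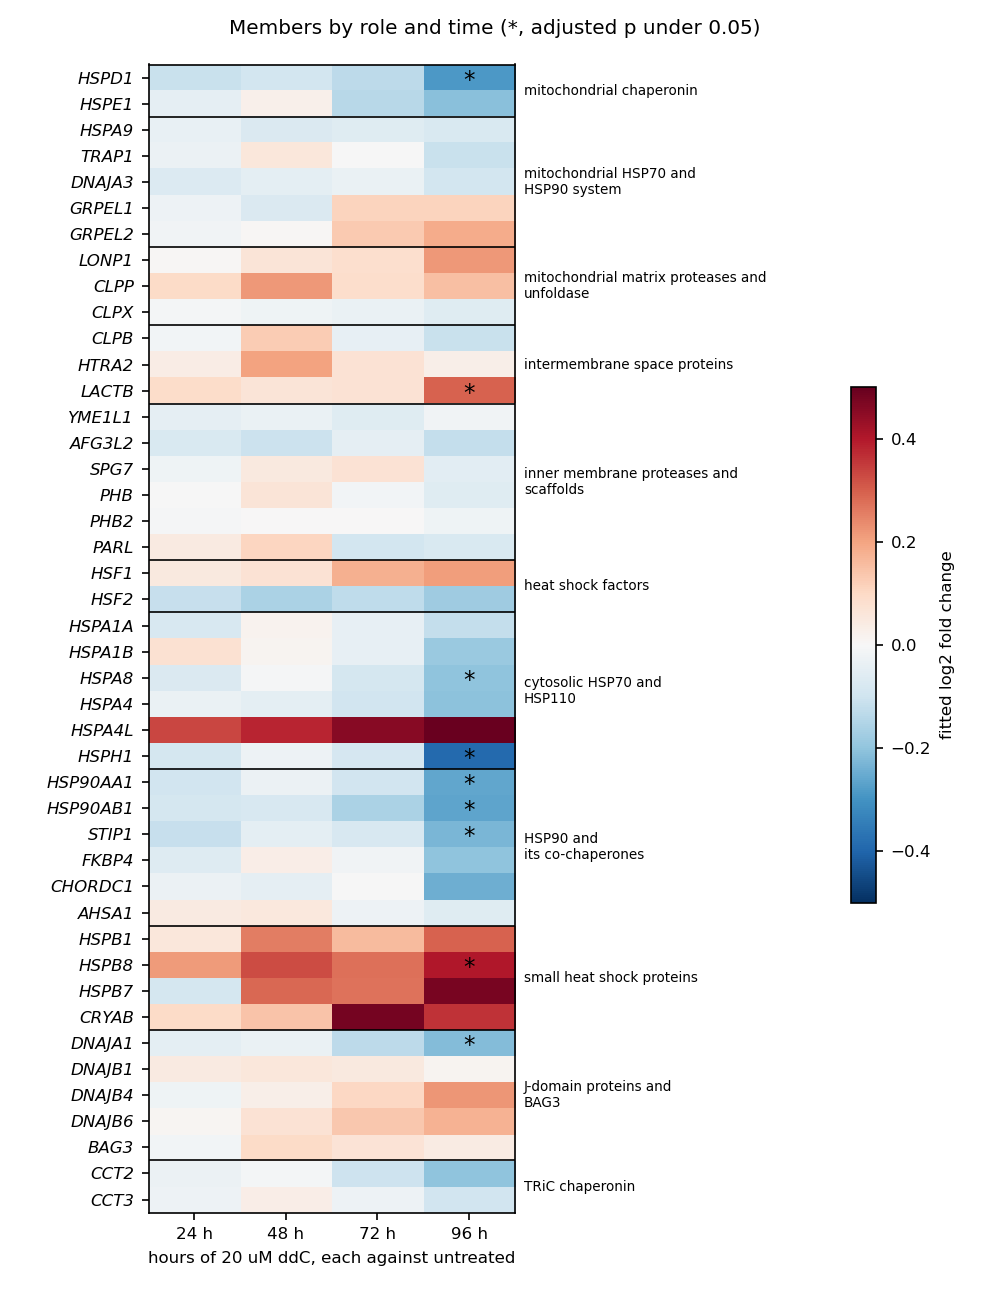
Fitted log2 fold change of all 44 members at 24, 48, 72 and 96 h of ddC, each against the same 2 untreated libraries, ordered by role. Blue is lower and red higher than untreated cells, colours are limited to 0.5 either way, and asterisks mark calls, all 9 of which are at 96 h. The 6 genes of HSP90 and its co-chaperones are all blue at 96 h and the 4 small heat shock proteins all red.

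In the cytosolic HSP70 group, 2 of 6 members fell. HSPH1 encodes HSP110, which recharges HSP70 with ATP and helps it pull aggregates apart (chr13:31709111-31736158, hg19). It had 175, 172 and 164 CPM at 96 h, against 221 and 225 CPM in untreated cells. The 9 libraries at 24, 48 and 72 h had 199 to 228 CPM, so the 96 h group stood apart from every other. Its fitted log2 change was -0.39 ± 0.06 (adjusted p = 0.00055), a level 0.765 times that of untreated cells.

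The call of HSPH1 did not depend on any setting tried. It stayed called under all 21 other fits, with a log2 change between -0.47 and -0.36 and an adjusted p of at most 0.0349. The comparison of 96 h with 72 h sets libraries of the higher antisense set against each other and was chosen after the data had been seen. There HSPH1 was at -0.30 ± 0.06 (adjusted p = 0.0126), the 1 member called, where 0.516% of all genes were. In that comparison 30 of the 44 members were below 0. HSPH1 shared none of its 50-base stretches with another annotated gene.

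HSPA8 encodes HSC70, the constitutive HSP70 of the cytosol and the most abundant member per kilobase (chr11:122928200-122933043, hg19). It had 1603, 1652 and 1587 CPM at 96 h, against 1910 and 1807 CPM in untreated cells. The 96 h libraries overlapped with those at 24 h, the lowest of which had 1651 CPM, but not with untreated cells. The log2 change was -0.20 ± 0.06 (adjusted p = 0.0347). The call was lost without the first or the third 96 h library, without either untreated library (adjusted p up to 0.258) and with a term for the library set.

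HSPA1A and HSPA1B are the heat-inducible HSP70 genes and are nearly identical. HSPA1A had 21.9, 20.3 and 24.6 CPM at 96 h, against 24.97 and 23.4 CPM in untreated cells. HSPA1B had 17.6, 19.0 and 20.9 CPM at 96 h, against 20.0 and 23.5 CPM in untreated cells. Both overlapped and neither was called (-0.12 ± 0.09, adjusted p = 0.524, and -0.18 ± 0.10, adjusted p = 0.333). Since 72.6% of the 50-base stretches of HSPA1A occur in HSPA1B, how reads were divided between them is uncertain, and their sum is the safer value. The sum was 41.4 ± 3.48 CPM at 96 h (SD, n = 3), against 46.0 ± 1.35 CPM in untreated cells (SD, n = 2).

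HSPA4 and HSPA4L are relatives of HSPH1. HSPA4 had 183 to 206 CPM at 96 h, against 222 to 225 CPM in untreated cells, and narrowly missed the threshold (-0.20 ± 0.06, adjusted p = 0.057). DESeq2 called it (adjusted p = 0.0295). HSPA4L is a low-abundance gene with 7.86, 7.57 and 7.49 CPM at 96 h, against 5.46 and 5.38 CPM in untreated cells. All 12 treated libraries, from 24 h on, were above both untreated libraries, with 6.11 to 8.76 CPM. Its log2 change at 96 h, 0.49 ± 0.16, was not called (adjusted p = 0.0818).

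Of the HSP90 pair and their 4 co-chaperones on the list, 3 fell and all 6 were below 0. Of 15 co-chaperones of HSP90 and HSP70 outside the list, 0 were called, with 4 above 0 and 11 below. HSP90AA1 encodes the stress-inducible HSP90 alpha (chr14:102547075-102553512, hg19). It had 1752, 1794 and 1674 CPM at 96 h, against 2132 and 2030.4 CPM in untreated cells. The groups did not overlap, although 1 library at 24 h had 1777 CPM. The fit gave a log2 change of -0.26 ± 0.06 (adjusted p = 0.015). The call was lost without the third 96 h library, without either untreated library (adjusted p up to 0.158) and with a term for the library set.

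HSP90AB1 encodes the constitutive HSP90 beta (chr6:44214695-44221625, hg19). It had 955, 970.5 and 953 CPM at 96 h, against 1164 and 1142 CPM in untreated cells. Every 96 h library lay below every library at 72 h, which had 1012 to 1060 CPM, and the 72 h libraries lay below the untreated ones. Its log2 change at 96 h was -0.27 ± 0.05 (adjusted p = 0.00363). Without the first untreated library the adjusted p was 0.0568, and with a term for the library set 0.111.

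STIP1, also called HOP, holds HSP70 and HSP90 together for the handover of clients (chr11:63953587-63972020, hg19). It had 215, 216 and 231 CPM at 96 h, against 264 and 253 CPM in untreated cells, and the groups did not overlap. The log2 change was -0.23 ± 0.06 (adjusted p = 0.0277). The call was lost without the first or the second 96 h library, without either untreated library (adjusted p up to 0.208) and with a term for the library set (adjusted p = 0.284). The other co-chaperones were not called. FKBP4, a peptidyl-prolyl isomerase, was at -0.20 ± 0.07 (adjusted p = 0.0817), CHORDC1 at -0.24 ± 0.10 (adjusted p = 0.168) and AHSA1, which stimulates the ATPase of HSP90, at -0.06 ± 0.06. FKBP4 was called with the 96 h and untreated libraries alone (adjusted p = 0.0407) and with a nuclear RNA covariate (adjusted p = 0.0197). Summed, the 6 genes had 3108 to 3220.1 CPM at 96 h, against 3697 and 3830.2 CPM in untreated cells.

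The 4 small heat shock proteins hold unfolding proteins without using ATP, and 1 of them rose. HSPB8 works with BAG3 in selective autophagy of misfolded proteins (chr12:119616595-119632551, hg19). It had 31.9, 30.2 and 36.4 CPM at 96 h, against 26.5 and 23.4 CPM in untreated cells. All 12 treated libraries were above both untreated ones. The fit gave a log2 change of 0.40 ± 0.10 (adjusted p = 0.0238). The call was lost without the first or the third 96 h library, without either untreated library (adjusted p up to 0.315) and with a term for the library set (adjusted p = 0.447). Its log2 change over untreated cells was 0.21 at 24 h, 0.33 at 48 h and 0.28 at 72 h, without a call.

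The other 3 small heat shock proteins were higher at 96 h without a call. HSPB1, or HSP27, the most abundant of them, had 340, 334 and 387 CPM at 96 h, against 291 and 287 CPM in untreated cells. The groups did not overlap, but libraries at 24 h ran from 268 to 327 CPM, and the log2 change of 0.29 ± 0.11 had an adjusted p of 0.154. It was called when 96 h and untreated libraries were fitted alone (adjusted p = 0.000636). CRYAB, or alpha B crystallin, had 16.8, 16.4 and 16.8 CPM at 96 h, against 15.3 and 10.7 CPM in untreated cells (0.36 ± 0.14, adjusted p = 0.145). The untreated libraries differed more from each other than the 96 h libraries did. HSPB7, at 1.90, 2.18 and 2.86 CPM at 96 h against 1.39 and 1.94 CPM in untreated cells, overlapped (0.48 ± 0.30, adjusted p = 0.401).

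Among the J-domain proteins, which deliver clients to HSP70, 1 of 4 fell. DNAJA1 had 291, 300.3 and 282 CPM at 96 h, against 345 and 332 CPM in untreated cells (chr9:33025201-33039906, hg19). The groups did not overlap, but 24 h and 72 h libraries reached down to 304 and 294 CPM. The log2 change was -0.22 ± 0.06 (adjusted p = 0.0436), and it was the least stable call, lost in 7 of 21 other fits. These were the fits without any 1 of the 96 h libraries, without either untreated library (adjusted p up to 0.249), without the second 72 h library, and with a term for the library set. DNAJB1, the stress-inducible HSP40, had 138, 146 and 143 CPM at 96 h, against 142 and 139 CPM in untreated cells, with overlap (0.01 ± 0.06, adjusted p = 0.933). DNAJB4 (0.22 ± 0.08, adjusted p = 0.126) and DNAJB6 (0.17 ± 0.06, adjusted p = 0.117) were above both untreated libraries in all 96 h libraries, without a call. DNAJB4 was called with the 96 h and untreated libraries alone (adjusted p = 0.046) and with a nuclear RNA covariate (adjusted p = 0.0426).

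BAG3, the co-chaperone that pairs HSP70 with HSPB8, had 126, 115 and 126 CPM at 96 h, against 117 and 120 CPM in untreated cells, and overlapped (0.04 ± 0.06, adjusted p = 0.761). HSF1, the main heat shock factor, had 62.0, 60.4 and 63.3 CPM at 96 h, against 48.0 and 59.2 CPM in untreated cells. The untreated pair was far apart, and the log2 change of 0.21 ± 0.10 had an adjusted p of 0.231. HSF2 was at -0.18 ± 0.11 (adjusted p = 0.383). The TRiC chaperonin subunits on the list, CCT2 and CCT3, were below untreated cells in all 96 h libraries without a call (-0.20 ± 0.07, adjusted p = 0.116, and -0.10 ± 0.06, adjusted p = 0.377). The same pair of other fits called CCT2 (adjusted p = 0.01 and 0.00364).

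A linear trend over the treated times alone, from 24 to 96 h, does not use the untreated libraries for its direction. It called 2 members, HSPH1 and HSP90AB1, both falling, against 3.76% of all genes in either direction, 2.96% rising and 0.800% falling. HSPH1 changed by -0.096 ± 0.018 log2 units per day of ddC (adjusted p = 0.00209). Its libraries had 203 to 221 CPM at 24 h, 211 to 228 CPM at 48 h, 199 to 222 CPM at 72 h and 164 to 175 CPM at 96 h, so the libraries of the first 3 times overlapped and those at 96 h were lower. HSP90AB1 changed by -0.061 ± 0.015 per day (adjusted p = 0.0197). At an unadjusted p under 0.05, 21 of the 44 members had a trend, 5 of them mitochondrial, where 2060 of 13371 genes did. With a term for the library set, 0 members had a called trend, and the HSPH1 trend was then -0.128 ± 0.035 (adjusted p = 0.188). Of the 24 h and 48 h libraries 1 is in the higher antisense set, the third at 48 h, so that fit rests on it.

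**Figure D4:**
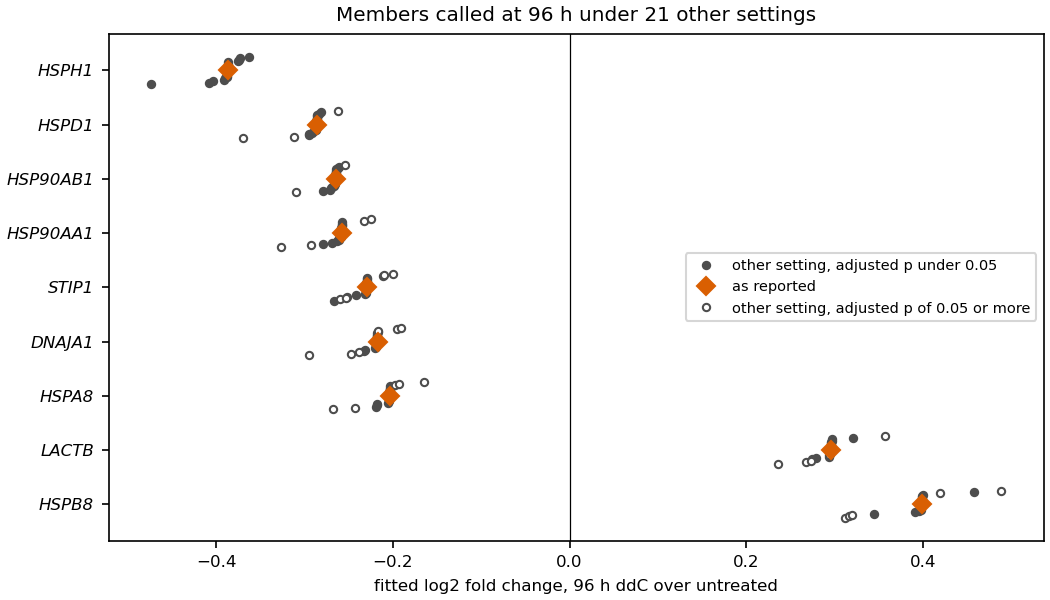
Fitted log2 fold change at 96 h of ddC over untreated cells for the 9 called members in the reported fit (orange diamonds) and in 21 other fits (circles, filled where the adjusted p was under 0.05 and open where it was not). All circles of a gene lie on the same side of 0 as its diamond, and HSPH1 has filled circles only, between -0.47 and -0.36.

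Further genes of the same pathways were taken from lists made for the comparison. Their calls are from the reported fit alone and, unlike those of the members, were not followed through the other fits. At 96 h, 3.57% of all tested genes rose and 2.11% fell, and 50.8% had a fitted value below 0. Of the other 6 TRiC subunits, 1 fell at 96 h, CCT6A, with 240.3 to 250 CPM at 96 h, against 284 and 281 CPM in untreated cells. The groups did not overlap (-0.21 ± 0.06, adjusted p = 0.0359). CCT5 was next (-0.22 ± 0.07, adjusted p = 0.0517), and all 6 fitted values were below 0, with a median of -0.145. Prefoldin, which passes new actin and tubulin chains to TRiC, gave 0 calls among 6 subunits, 1 with an unadjusted p under 0.05, and a median of -0.010. Its fitted values were above 0 for 1 subunit and below 0 for 5.

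Of 15 other co-chaperones 0 were called and 4 had an unadjusted p under 0.05, with FKBP5, an HSP90-binding isomerase, nearest (-0.23 ± 0.08, adjusted p = 0.0902). Fitted values of the 15 were above 0 for 4, up to 0.186, and below 0 for 11. Among 13 other cytosolic chaperones, of which 12 were tested, HSPB6 rose. Of the 12, 8 had fitted values above 0 and 4 below. HSPB6, a small heat shock protein known from muscle, had 223.5, 235 and 237 CPM at 96 h, against 151 and 154 CPM in untreated cells, and the groups were far apart. Its log2 change of 0.60 ± 0.08 (adjusted p = 8.87e-05) was larger than the point estimate of any of the 44 members, and its trend was 0.20 ± 0.02 per day (adjusted p = 1.40e-05).

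Of 14 other mitochondrial import and protease genes 0 were called at 96 h and 1 had an unadjusted p under 0.05. Their fitted values were above 0 for 5 and below 0 for 9. TIMM44, which tethers HSPA9 to the import channel, was at 0.22 ± 0.08 (adjusted p = 0.0957) and had a called rising trend of 0.086 ± 0.021 per day (adjusted p = 0.0235). Of 9 chaperones of the endoplasmic reticulum 0 were called, 2 with an unadjusted p under 0.05, and HSPA5, their HSP70, was at 0.003 ± 0.049 (adjusted p = 0.98). HYOU1 was nearest (-0.17 ± 0.06, adjusted p = 0.0834). Fitted values of the 9 were above 0 for 6 and below 0 for 3.

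Of 8 genes on a list of mitochondrial stress factors and their targets, 3 rose at 96 h, where 3.57% of all genes rose. These calls, too, were not followed through the other fits. Of the 8 genes, 7 had fitted values above 0 and 1 below. ATF4, the transcription factor of the integrated stress response, had 312, 296 and 316 CPM at 96 h, against 239 and 254 CPM in untreated cells (0.32 ± 0.06, adjusted p = 0.00114). Its targets TRIB3 (0.62 ± 0.10, adjusted p = 0.0005) and ASNS (0.41 ± 0.07, adjusted p = 0.00061), a pseudokinase and the asparagine synthetase, rose as well. For all 3 the 96 h libraries lay above both untreated ones. DDIT3, or CHOP, was at 0.43 ± 0.14 without a call (adjusted p = 0.0768), ATF5, which can drive HSPD1 and LONP1, at -0.12 ± 0.09 (adjusted p = 0.516), and the heme-regulated kinase EIF2AK1 at 0.07 ± 0.06.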

How the data were processed

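Counts per gene were deposited by the authors as 1 table of raw counts for 14 libraries. STAR 2.5.3a, HOMER and the hg19 genome are named in the submitters' processing notes, without settings, and libraries were made with a stranded kit from polyadenylated RNA, per the labels' protocols. Strand and overlap settings of the counting are not given in the sources used here. VIM-AS1, opposite VIM, drew 0.155% as many counts as VIM, and strands were therefore treated as separated.

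Members were matched by the gene symbol at the start of each row name. The members, the pathway lists and the rule for naming genes were chosen with earlier results of these data known. Named with full values are members called in any comparison, 15 anchor genes and the 3 largest rises and falls of each list at 96 h. Other pathway lists are counted by direction, with called genes and up to 3 more named.

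Tests used edgeR 4.0.16 in R 4.3.3 on the raw counts: filterByExpr (minimum count 10, minimum total 15), TMM factors (0.971 to 1.02) and the robust quasi-likelihood model, with 5 group means over 14 libraries. Tests were two-sided, with Benjamini-Hochberg adjustment over 13371 genes in each comparison. CPM is the count scaled to a TMM-adjusted total of 1e+06. An SE was obtained as |log2 change| over the root of F. P-values and SEs measure the spread between libraries, which the series' design text calls biological replicates of 1 cell line, with no statement on separate cultures. The scripts were tested on simulated data. The planted changes were larger than those of the called members at 96 h, and no library set effect was simulated, so calls of this size were not covered.

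Levels per kilobase used the transcript lengths in the table. Shared 50-base stretches were counted in GENCODE transcripts. Promoter windows, from RefSeq, span 250 bases before to 50 after a start. Alternatives were DESeq2 size factors in edgeR, DESeq2 1.42.0, no low-count filter, a replicate block, fits of only the groups being compared, each library left out, and a nuclear RNA covariate. A term for the library set and 96 h against 72 h were chosen after seeing the data.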

Additional observations from a re-analysis of the deposited data

Results flagged for a closer look

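HSPH1 and HSP90AB1 were singled out because their difference from untreated cells was not the same at all times of ddC, by the test of a linear trend over 24 to 96 h (edgeR, adjusted over all genes). HSPH1 changed by -0.096 log2 units per day (adjusted p = 0.00209) and HSP90AB1 by -0.061 per day (adjusted p = 0.0197). The trend of HSPH1 was not called when the treated libraries were fitted alone (adjusted p = 0.0503). That of HSP90AB1 was not called without the first 24 h library or without the first or the third 96 h library (adjusted p up to 0.126).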

How the results depend on the processing

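The count of members called at 96 h, 9, was 9 with DESeq2 size factors or no low-count filter and 10 with DESeq2. It was 15 (5 up, 10 down) when only the compared groups were fitted, 16 (5 up, 11 down) with a nuclear RNA covariate and 1 with a term for the library set. Leaving out 1 library gave 1 to 10 calls: 1 and 2 without the first and second untreated library, and 4 and 5 without the first and the third 96 h library. Over all genes the 759 calls (5.68%) became 1646 (12.6%) with only the compared groups, 1848 (13.8%) with the covariate, 121 (0.905%) with the library set, 265 (1.95%) and 174 (1.28%) without the first and second untreated library, and 425 (3.18%) and 431 (3.23%) without the first and the third 96 h library. Members gained were LONP1, HSPA4, DNAJB4, FKBP4 and CCT2 under both the compared groups and the covariate, HSPB1 under the compared groups, and HSPE1 and HSPA4L under the covariate. The trend, with 2 members called, gave 1 with only the compared groups, 14 (6 up, 8 down) with the covariate, 0 with the library set and 1 to 8 without 1 library: 8 without the second 24 h library, and 1 without the first or the third 96 h library. The 503 trends over all genes (3.76%) became 398, 1270 (9.50%) and 26 (0.195%) under the first 3 of these fits and 280 to 537 without 1 library. At 72 h the covariate gave 1 call, CRYAB (adjusted p = 0.0125), where there was 0. The cause of these differences was not tested.

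Replicate numbers gave no clear pairing of the libraries. Same-numbered libraries had a median correlation of deviations of -0.029 over 26 pairs (-0.361 to 0.611), 11 of them over 0.1. Differently numbered libraries had a median of 0.042 over 52 pairs (-0.489 to 0.512), 18 of them over 0.1. With the replicate number as a block, the same 9 members were called at 96 h, and 3 had a trend.

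Of 4620 member values recomputed, 152 changed sign, all among values without a call, and a sign change there was not counted as a reversal. Of the others, 43 passed the threshold anew and 42 no longer passed it. With 2 untreated libraries, leaving out 1 assumes that the other varies like the remaining groups. Depth limits most the members with the lowest CPM, HSPB7 and HSPA4L.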
